A study of Mus musculus with 12 samples.

Results

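Microglia are the resident macrophages of the brain, and 10 genes that mark them or that they transcribe were followed here across cortex and cerebellum of a mouse model of spinocerebellar ataxia type 1 (SCA1). The genes are Aif1, Cx3cr1, P2ry12, Tmem119, Csf1r, Trem2, Tyrobp and the complement genes C1qa, C1qb and C1qc. They were chosen by symbol, each matched 1 row, and they make up 10 of the 15759 entries of the table of normalized read counts. All 10 passed the minimum mean of 10 normalized counts over the 12 libraries, which 15369 genes passed.

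The SCA1 KI mice carried Atxn1 154Q/2Q, a knock-in of 154 CAG repeats into one allele of the endogenous Atxn1 gene and 2 repeats in the other, and they were compared with WT littermates on the same C57BL/6J background at 12 weeks of age. Poly-adenylated RNA of macrodissected whole cortex and whole cerebellum was sequenced as 3 libraries in each of the 4 groups (cortex WT, cortex SCA1 KI, cerebellum WT and cerebellum SCA1 KI). The mutant protein is made wherever Atxn1 is active, in neurons and in glia, so these animals do not separate an effect within microglia from one in their surroundings. The cerebellar libraries come from an earlier experiment of the same laboratory, so that region and experiment cannot be told apart, and nothing ties a library to 1 animal beyond the label of a biological replicate.

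The depth was 29520855 to 51311309 gene reads a library. The libraries are named here by their region, genotype and the letter or number of their column (cortex A to F, cerebellum 1 to 6). Markers of cortex and cerebellum matched the labels, with a summed normalized count of 12690 to 18086 for 4 cortical markers in cortex against 322 to 394 in cerebellum. The labels give males and the study's methods males and females combined. In every library 4 genes of the Y chromosome were read, and no value of Xist is given here. Normalized counts of Atxn1, which is expressed from both alleles and so does not check the knock-in, were 7370 ± 815 (SD, n = 3) in WT and 6040 ± 1337 (SD, n = 3) in SCA1 KI cortex, and 3679 ± 54.9 and 3889 ± 221 in cerebellum.

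Microglia depend on signalling through Csf1r, the receptor of the cytokines Csf1 and Il34, and they patrol the tissue with receptors for signals from neurons, among them P2ry12 for nucleotides and Cx3cr1 for the chemokine Cx3cl1. Trem2 binds lipids and debris at the cell surface and passes its signal through the adaptor Tyrobp. C1qa, C1qb and C1qc encode the 3 chains of C1q, which starts the classical complement pathway and tags synapses for removal, and which in the brain is made mainly by microglia. Resting microglia keep P2ry12, Tmem119 and Cx3cr1 high and lower them when activated, while Aif1, which encodes Iba1, is the usual marker of microglia on tissue sections.

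By the GENCODE annotation on GRCm38 (the mm10 assembly), C1qb (ENSMUSG00000036905, chromosome 4 from 136880129 to 136886187), C1qc (ENSMUSG00000036896, from 136889804 to 136893065) and C1qa (ENSMUSG00000036887, from 136895917 to 136898803) lie next to each other on the minus strand. P2ry12 (ENSMUSG00000036353) lies on chromosome 3 from 59216272 to 59262871, and its exons overlap those of Med12l. Cx3cr1 (ENSMUSG00000052336) lies on chromosome 9 from 119901616 to 120069879 and shares exonic bases with Gm33858, and Csf1r (ENSMUSG00000024621) shares some with Hmgxb3, so reads in these overlaps could belong to the neighbour. Tmem119 (ENSMUSG00000054675, chromosome 5 from 113793729 to 113800516), Tyrobp (ENSMUSG00000030579, chromosome 7 from 30413760 to 30417585), Aif1 (ENSMUSG00000024397, chromosome 17 from 35170991 to 35176068) and Trem2 (ENSMUSG00000023992, chromosome 17 from 48346401 to 48354147) overlap no other exons.

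Promoter sequences were held for 6 of the 10 genes in RefSeq on GRCm38.p6, each as 250 bases before and 50 after the transcription start (P2ry12, C1qb, C1qc, Cx3cr1, Aif1 and Trem2). The motif AGGAAGT, a core that PU.1 and other ETS factors bind, was searched on both strands because PU.1 is the lineage factor of microglia. It occurred once each in P2ry12, C1qb and C1qc, and these 3 windows are shown because they hold the gene that fell in the cerebellum and a pair of C1q genes that did not pass the test. The share of all 32851 promoters of this length with the motif was 9.35%. Capitals mark the motif, which in C1qb and C1qc is on the opposite strand and so reads as its reverse complement.
P2ry12 (chr3:59262936-59263235, minus strand): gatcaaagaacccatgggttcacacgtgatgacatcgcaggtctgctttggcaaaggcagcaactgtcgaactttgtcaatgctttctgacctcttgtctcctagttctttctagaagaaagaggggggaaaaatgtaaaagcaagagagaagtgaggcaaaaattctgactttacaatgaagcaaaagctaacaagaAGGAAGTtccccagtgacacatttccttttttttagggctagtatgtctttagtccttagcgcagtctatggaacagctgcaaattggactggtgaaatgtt
C1qb (chr4:136886151-136886450, minus strand): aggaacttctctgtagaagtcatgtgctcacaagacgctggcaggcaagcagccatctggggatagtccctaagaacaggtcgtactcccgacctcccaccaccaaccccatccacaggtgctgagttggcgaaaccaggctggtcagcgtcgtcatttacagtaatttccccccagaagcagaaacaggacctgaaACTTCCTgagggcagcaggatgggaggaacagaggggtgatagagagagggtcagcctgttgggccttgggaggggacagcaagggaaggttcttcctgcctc
C1qc (chr4:136892865-136893164, minus strand): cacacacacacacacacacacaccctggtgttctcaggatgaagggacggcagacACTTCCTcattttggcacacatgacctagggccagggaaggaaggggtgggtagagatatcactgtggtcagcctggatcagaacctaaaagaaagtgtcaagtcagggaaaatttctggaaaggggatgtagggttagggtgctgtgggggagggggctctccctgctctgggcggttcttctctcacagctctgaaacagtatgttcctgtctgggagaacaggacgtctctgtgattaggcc
The motif lay at bases 199 to 205 of the P2ry12 window, at bases 198 to 204 of the C1qb window and at bases 56 to 62 of the C1qc window. The AP-1 motif TGANTCA, found in 7.81% of promoters, was present in Trem2 among the 6, and the TATA box TATAAA, found in 13.6%, in none of the 6. These matches describe the letters of the windows and are not shown to be occupied sites.

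The 10 genes were all higher in cortex than in cerebellum, in WT and in SCA1 KI mice. P2ry12 had normalized read counts of 1968, 1955 and 2299 in WT cortex libraries B, C and D against 733, 535 and 542 in WT cerebellum libraries 2, 4 and 6. Its SCA1 KI libraries gave 2119, 2070 and 2010 in cortex (A, E and F) and 437, 422 and 440.5 in cerebellum (1, 3 and 5). The lowest cortical library was thus far above the highest cerebellar one in both genotypes. C1qa, the A chain of C1q, showed a smaller step, from 705, 497 and 518 in WT cerebellum to 1536, 1270 and 1567 in WT cortex.

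**Figure D1:**
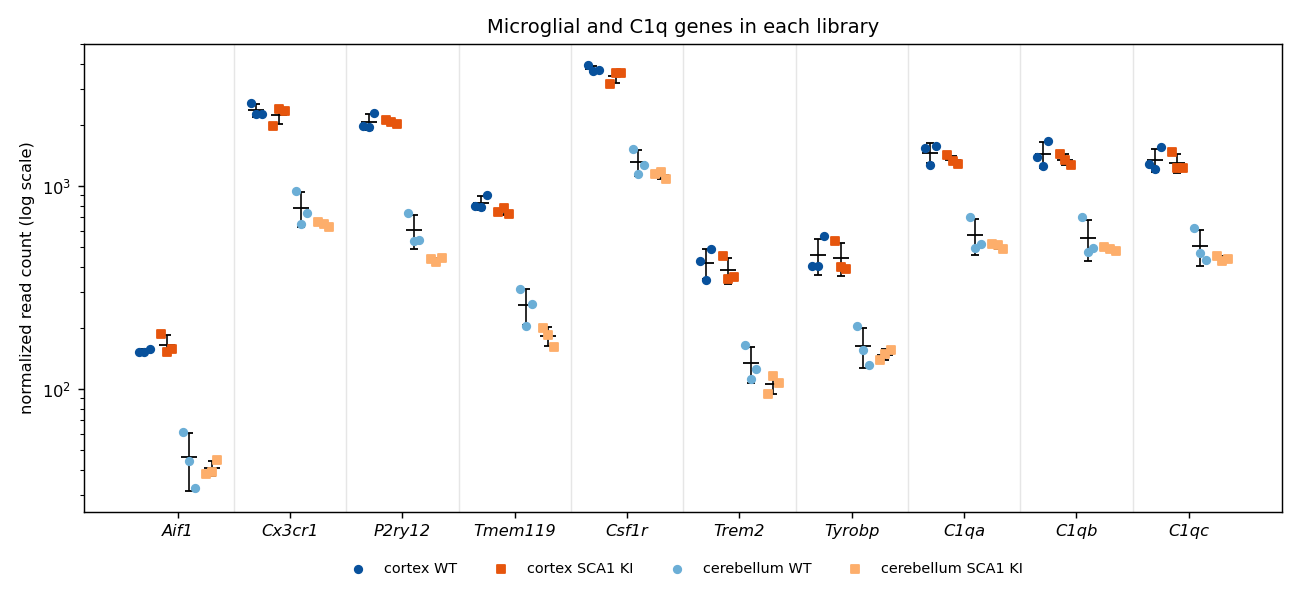
Normalized read counts (log axis) of the 10 genes in every library, with 1 point per library, circles for WT and squares for SCA1 KI, and black bars for the mean and SD of the 3 libraries of a group. The cortical points lie above the cerebellar points for every gene, whereas WT and SCA1 KI points of 1 region mostly overlap.

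Over the 10 genes, the log2 fold change (LFC) of cortex against cerebellum ran from 1.36 for C1qa to 1.79 for P2ry12 in WT and from 1.41 for C1qa to 2.25 for P2ry12 in SCA1 KI mice. LFCs here are differences of log2(normalized count + 1), fitted by limma with 1 mean for each of the 4 groups, and DEGs are genes whose p, adjusted by Benjamini-Hochberg over all tested genes, was under 0.05 with an LFC beyond 0.25 in either direction. The p-values measure only the spread between these libraries. All 10 genes were DEGs in WT, where 31.0% of all tested genes were higher in cortex, with adjusted p between 1.18e-08 (Csf1r) and 9.22e-06 (Tyrobp) by limma. All 10 were also DEGs in SCA1 KI mice, where 32.0% of tested genes were higher in cortex, with adjusted p between 1.5e-09 (P2ry12) and 5.6e-06 (Tyrobp). Libraries of the regions did not overlap for any member, as for 35.1% of all genes in WT and 37.8% in SCA1 KI mice in this direction. The median LFC of the 10 genes was 1.58 in WT and 1.70 in SCA1 KI mice, beside medians of 0.0016 and 0.0055 over all tested genes. In bulk tissue, fewer cells of a type and less RNA per cell cannot be told apart. Of 15 further genes of homeostatic microglia (among them P2ry13, Siglech and Sall1), 15 were higher in cortex in each genotype, with a median LFC of 1.56 in WT and 1.59 in SCA1 KI mice. Other lists were not uniform. Of 19 tested genes of disease-associated microglia, 6 were higher and 5 lower in cortex in WT (median LFC 0.06). Of 8 markers of border macrophages, 1 was higher in cortex in WT and 0 were lower (median LFC 0.28).

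Levels of different genes were compared as normalized counts per kilobase of exons. For this length all annotated exons of a gene were merged, which gave 4946 bases for Trem2, 1532 for Aif1, 1931 for C1qc and 1040 for C1qa. The order depends on these lengths. Before division, WT cortex had 419 normalized counts for Trem2 against 154 for Aif1, and 1346 for C1qc against 1458 for C1qa. In WT cortex C1qa stood highest at 1402, followed by C1qb at 1321, whose libraries overlapped those of C1qa. P2ry12 came next at 815, and the libraries of C1qc (697), Tyrobp (686) and Csf1r (655) overlapped between neighbours in that order, C1qc with P2ry12 included. Below them Cx3cr1 at 523, Tmem119 at 357, Aif1 at 101 and Trem2 at 84.7 were each separated from the next by a gap between their libraries. In WT cerebellum the order began with C1qa (551) and C1qb (510), and the libraries of C1qc (262), Tyrobp (245), P2ry12 (237), Csf1r (227) and Cx3cr1 (173) overlapped from each to the next, followed by Tmem119 (112), Aif1 (30.0) and Trem2 (27.0). In cerebellum of SCA1 KI mice P2ry12 had moved below Csf1r, with 170 against 196 per kilobase and no overlap of libraries. Aif1 had the fewest reads, 28 to 67 per library in WT cerebellum, so that its values carry the largest counting error of the 10.

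The C1q chains kept nearly the same proportions in all 12 libraries. Of the summed normalized counts of C1qa, C1qb and C1qc, C1qa took 32.8% to 36.5%, C1qb 32.9% to 34.8% and C1qc 29.8% to 33.9%. The ranges of WT and SCA1 KI libraries overlapped in each region for every chain.

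In the cortex, no member of the 10 passed the test between SCA1 KI and WT mice. P2ry12, the nucleotide receptor, had mean normalized counts of 2066 ± 54.4 (SD, n = 3) in SCA1 KI and 2074 ± 195 (SD, n = 3) in WT cortex, with an LFC of −0.0016 (95% interval −0.24 to 0.23, adjusted p = 0.994 from limma). Cx3cr1, the receptor of the neuronal chemokine Cx3cl1, was read at 1978, 2396 and 2335 in SCA1 KI libraries A, E and F and at 2555, 2255 and 2255 in WT libraries B, C and D (LFC −0.08). Tmem119, a surface protein of resting microglia, was lower in each SCA1 KI library (743, 780 and 725) than in each WT library (795, 786 and 901). Its LFC of −0.14 (95% interval −0.43 to 0.15) did not pass the test (adjusted p = 0.53 from limma). Csf1r also did not overlap between the genotypes, with 3166, 3605 and 3618 in SCA1 KI against 3932, 3687 and 3720 in WT cortex, and its LFC was −0.13 (adjusted p = 0.387 from limma). That LFC was −0.065 without SCA1 KI library A and −0.0056 after removal of the dependence of each library on GC content and length of the transcript.

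Aif1, the gene of Iba1, was the only member with a positive LFC in cortex, 0.10 (95% interval −0.33 to 0.52, adjusted p = 0.786 from limma), from normalized counts of 186, 152 and 158 in SCA1 KI and 152, 153 and 157 in WT libraries. The higher mean came from SCA1 KI library A, and without it the LFC was 0.0067. Trem2 had an LFC of −0.12 and its adaptor Tyrobp one of −0.05, and for both the WT and SCA1 KI libraries overlapped. Tyrobp was read at 533, 400 and 388 in SCA1 KI libraries A, E and F and at 403, 405 and 565 in WT libraries B, C and D, so 1 library of each genotype stood above the other 4. The C1q chains gave LFCs of −0.11 for C1qa, −0.08 for C1qb and −0.04 for C1qc, with overlapping libraries.

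Of all tested genes, 15.6% were DEGs in the cortex of SCA1 KI mice (4.82% higher and 10.8% lower), beside 0 of 10 members. An unadjusted p under 0.05 was reached by 0 of the 10 genes, against 30.5% of all tested genes. The count of DEGs was also 0 of 10 with edgeR and with DESeq2 on the recovered reads, which called 16.1% and 17.3% of their genes. Groups that did not overlap with SCA1 KI below WT were seen for 2 of 10 genes (Tmem119 and Csf1r), against 18.0% of all tested genes. The 95% intervals of all 10 genes lay between −0.48 (Trem2) and 0.52 (Aif1). Negative LFCs were found for 9 of 10, against 50.5% of all, but for 5 of 10 without WT library D, where the median LFC of the members was 0.013, and for 8 of 10 with edgeR.

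**Figure D2:**
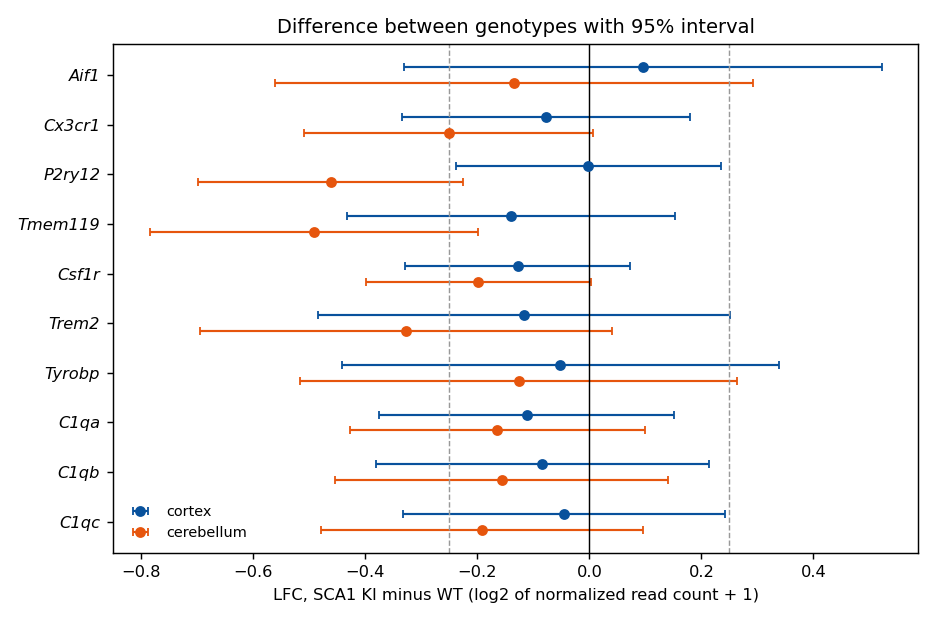
LFC of SCA1 KI minus WT for the 10 genes, in cortex (blue) and cerebellum (orange), with 95% intervals from limma and dashed lines at the limit of 0.25 on either side of 0. The cortical intervals all include 0, and in the cerebellum those of P2ry12 and Tmem119 lie below 0.

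In the cerebellum P2ry12 was lower in SCA1 KI mice, and the other 9 genes had negative LFCs that did not pass the test. P2ry12 fell to a level 0.726 times that of WT, from 603 ± 113 (SD, n = 3) to 433 ± 10.1 (SD, n = 3) normalized counts. The LFC was −0.46 ± 0.11 (standard error, 95% interval −0.70 to −0.23, adjusted p = 0.0267 from limma), and the 3 SCA1 KI libraries (437, 422 and 440.5) lay below the 3 WT libraries (733, 535 and 542). Med12l, whose exons overlap those of P2ry12, had 3973 ± 61.4 normalized counts in SCA1 KI and 3902 ± 84.1 in WT cerebellum, an LFC of 0.03. The call of P2ry12 rested on the libraries and on the fit. The LFC was −0.31 without WT library 2 (adjusted p = 0.0551 from limma), and the adjusted p was 0.086, 0.101 and 0.0735 without SCA1 KI libraries 1, 3 and 5 and 0.0703 when the cerebellum was fitted on its own. With edgeR and with DESeq2 2 of 10 genes were DEGs, P2ry12 and Tmem119, against 5.63% and 7.48% of all genes. P2ry12 passed in the other 8 alternatives with all libraries and the same LFC limit, edgeR (adjusted p = 0.0245) and DESeq2 (adjusted p = 0.00184) among them, with LFCs from −0.41 to −0.48.

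Tmem119 had a similar difference that missed the threshold. Its libraries gave 201, 185 and 161 normalized counts in SCA1 KI and 309.5, 205 and 262 in WT cerebellum, again without overlap. The LFC was −0.49 ± 0.14 (standard error, 95% interval −0.79 to −0.20, adjusted p = 0.0548 from limma). With edgeR the adjusted p was 0.0444 and with DESeq2 0.00842, and without WT library 4 it was 0.0061 by limma. It was 0.207 without WT library 2 (LFC −0.35), 0.21 without SCA1 KI library 5 (LFC −0.41), 0.144 without WT library 6, 0.134 without SCA1 KI library 3 and 0.12 with the cerebellum fitted on its own, all by limma. Removing from each library the dependence of its values on GC content and length of the transcript left an LFC of −0.36 for Tmem119 (adjusted p = 0.0917 from limma) and of −0.41 for P2ry12 (adjusted p = 0.014).

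The remaining members overlapped between the genotypes in the cerebellum. Cx3cr1 had 663, 650 and 624 normalized counts in SCA1 KI and 944, 651 and 738 in WT libraries, with an LFC of −0.25 (95% interval −0.51 to 0.0059, adjusted p = 0.303 from limma). Csf1r had 1142, 1177 and 1083 in SCA1 KI and 1517, 1141 and 1270 in WT libraries, with an LFC of −0.20 (adjusted p = 0.299 from limma). For both genes 1 WT library, library 2, stood above all others and library 4 lay within the range of the SCA1 KI values. Trem2 and Tyrobp gave LFCs of −0.33 and −0.13, and Aif1 one of −0.13 from 37.9, 39.1 and 44.5 normalized counts in SCA1 KI against 61.2, 44.0 and 32.6 in WT libraries. C1qa, C1qb and C1qc gave LFCs of −0.16, −0.16 and −0.19. For each of them the 3 SCA1 KI libraries lay below WT library 2, and their range overlapped that of WT libraries 4 and 6.

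The 1 DEG among 10 genes compares with 5.36% DEGs over all tested genes in the cerebellum, 0.917% higher and 4.44% lower. An unadjusted p under 0.05 was reached by 2 of 10 genes, against 17.3% of all, and SCA1 KI libraries lay entirely below WT libraries for 2 of 10 (P2ry12 and Tmem119), against 17.5%. Negative LFCs were found for 10 of 10 genes (7 of 10 without WT library 2, with a median of −0.06), against 51.3% of all tested genes, and the median LFC of the 10 was −0.19 beside −0.0049 over all. The 10 genes vary together between libraries and do not count as 10 separate observations. After the same removal, all 10 LFCs stayed negative but their median was −0.09, against a median of 0.08 over all tested genes, and the share of lower genes among all cerebellar DEGs changed from 82.9% to 52.2% (in cortex from 69.2% to 56.0%).

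The genotype effect was not shown to differ between the regions for any of the 10 genes. The cortical LFC minus the cerebellar LFC was positive for all 10, from 0.05 for C1qa to 0.46 for P2ry12, while 48.7% of all tested genes were negative. Without WT cerebellum library 2 the difference was negative for 5 of 10 (median −0.0035), and after removal of the dependence on GC content and length for 3 of 10. For P2ry12 the difference had a standard error of 0.15 and an adjusted p of 0.0926 from limma, edgeR gave 0.0707, and DESeq2, which called 11.6% of genes, gave 0.0377. The difference passed for 8.15% of all tested genes and for 0 of the 10, and 1 of the 10 had an unadjusted p under 0.05, against 21.4% of all.

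**Figure D3:**
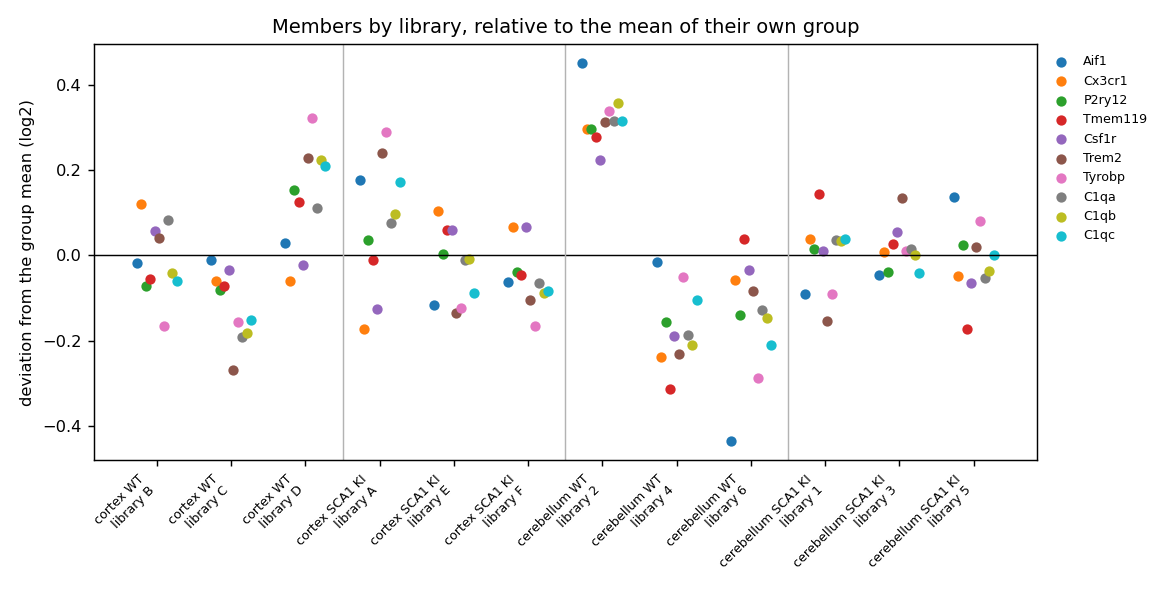
Deviation of each of the 10 genes (colours) from the mean of its own group, on the log2 scale, in every library, with vertical lines between the 4 groups. In WT cerebellum library 2 all 10 genes lie above their group mean, by 0.318 on average, and in WT library 4 all 10 lie below it.

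The wide spread of the WT cerebellum was common to the members. All 10 were above their group mean in WT library 2 (mean deviation 0.318 on the log2 scale), none was in library 4 (−0.17) and 1 was in library 6 (−0.15). The summed normalized count of the 10 genes was 5960, 4278 and 4544 in these WT libraries. In the SCA1 KI libraries it was 4182, 4162 and 4019. All WT sums were above all SCA1 KI sums, but they hold P2ry12, at 535 in WT library 4 and 437 in SCA1 KI library 1. Their order is therefore not separate from the call of P2ry12, and sums without it were not made. The sum of 7 oligodendrocyte markers moved with that of the members. It was 273533, 183010 and 203266 in WT libraries 2, 4 and 6 against 155811 to 156338 in SCA1 KI libraries. The sum of 4 cerebellar markers was lowest in WT library 2, at 151263 against 200914 and 188201 in WT libraries 4 and 6. In SCA1 KI libraries it was 168468 to 175200. The part of either list in the result was not tested. Of the 7 oligodendrocyte markers all 7 had negative LFCs in the cerebellum (median −0.50), against 51.3% of all tested genes, and 1 (Cldn11) was a DEG. Without WT library 2 the LFCs of Aif1 (0.09), Tyrobp (0.04) and C1qb (0.02) turned positive, and those of C1qa and C1qc were −0.0071 and −0.03, while those of P2ry12 and Tmem119 shrank to −0.31 and −0.35 (adjusted p = 0.0551 and 0.207 from limma).

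In cortex the members did not vary as one block. SCA1 KI library A held the highest SCA1 KI values of Aif1, Trem2, Tyrobp, P2ry12 and the 3 C1q chains and the lowest of Cx3cr1 and Csf1r, and WT library D likewise was highest in WT for Tyrobp, Trem2 and P2ry12 but not for Cx3cr1 or Csf1r. Over the 6 cortical libraries, deviations from the group means correlated positively in 28 of 45 pairs of genes (median r 0.63, lowest −0.91), and over the 6 cerebellar libraries in 45 of 45 (median r 0.84). In cerebellum the mean deviation of the members was 0.318, −0.17 and −0.15 in WT libraries 2, 4 and 6. It lay between −0.011 and 0.013 in the SCA1 KI libraries, so WT library 2 weighs most in the cerebellar correlations. No share of positive pairs over all genes is given beside them. The correlations are descriptions over libraries whose genes share 1 RNA sample each.

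How each member stood relative to the others was described, after the values had been seen, as the ratio of its normalized count to the geometric mean of the other 9 in the same library, which removes what all 10 share. In the cerebellum this ratio was 1.82, 1.87 and 1.87 for P2ry12 in WT libraries 2, 4 and 6 and 1.59, 1.51 and 1.62 in SCA1 KI libraries 1, 3 and 5. The WT ratios, unlike the WT counts, were nearly equal, and all 3 SCA1 KI ratios lay below them. The ratio of C1qa went the other way, with 1.72 to 1.78 in WT and 1.81 to 1.93 in SCA1 KI libraries. That of C1qb did so too, with 1.63 to 1.73 and 1.77 to 1.86. Both genes themselves had negative LFCs of −0.16 in the cerebellum, and a ratio rises where a gene falls less than the other 9. The other 7 ratios overlapped in the cerebellum, and all 10 overlapped in the cortex. There that of P2ry12 was 2.09 to 2.26 in WT and 2.23 to 2.36 in SCA1 KI libraries. Such ratios were not formed for other genes, so no share over all genes stands beside these counts. The ratio of P2ry12 reuses the counts behind its call and is no separate result. Since the ratios of 1 library are tied to each other, no test was made on them, and with 3 against 3 libraries an exact permutation test cannot go below p = 0.10.

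**Figure D4:**
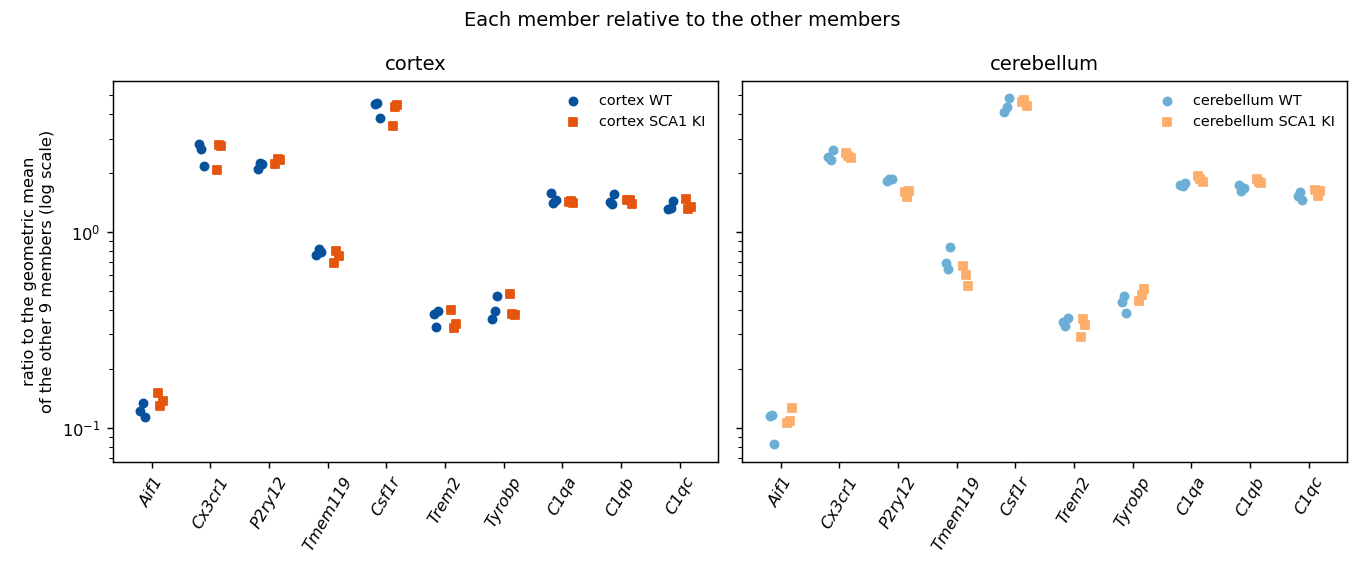
Ratio of the normalized count of each gene to the geometric mean of the other 9 genes in the same library (log axis), in cortex (left) and cerebellum (right), with circles for WT and squares for SCA1 KI libraries. In the cerebellum the SCA1 KI squares of P2ry12 (1.51 to 1.62) lie below its WT circles (1.82 to 1.87), and in the cortex the genotypes overlap for every gene.

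Each member was then set against the mean deviation of the other 9 over all 12 libraries. The likeness was highest for C1qb (r = 0.975), P2ry12 (0.958), C1qa (0.946) and C1qc (0.919) and lowest for Csf1r (0.564) and Cx3cr1 (0.52). Among genes outside the list, the 10 most like the mean of the members were Ctss (0.965), a lysosomal protease of microglia, and then Bin2 (0.949), Svip (0.949), Il18 (0.948), Rnf13 (0.941), Igtp (0.94), Fzd2 (0.929), 1110032F04Rik (0.927), Omg (0.927) and A830052D11Rik (0.924). Omg is a myelin protein of oligodendrocytes and neurons. These are the highest of 15357 other genes ranked over 12 libraries and are given as a description. The 15 homeostatic microglial genes had a median likeness of 0.756 and the 19 tested genes of disease-associated microglia one of 0.393. The median was 0.335 for the 7 oligodendrocyte markers and −0.0125 over all 15357 genes outside the list. The mean deviation of the members was largest in WT cerebellum library 2 (0.318), so that library weighs most in these values.

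Genes that act with the members were counted from lists of 128 genes, of which 108 were tested. In cortex 2 of these were higher and 14 lower in SCA1 KI mice, and in cerebellum 0 were higher and 6 lower. Among all tested genes these shares were 4.82% and 10.8% in cortex and 0.917% and 4.44% in cerebellum, and the median LFC of the 108 genes was −0.09 and −0.11.

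Among the signals to microglia, Cx3cl1 was lower in both regions and Il34 in the cerebellum. Cx3cl1, the neuronal ligand of Cx3cr1, had 38553, 38294 and 29296 normalized counts in WT and 20250, 25090 and 22057 in SCA1 KI cortex, which is an LFC of −0.65 ± 0.14 (standard error) with an adjusted p of 0.0053 by limma. In cerebellum it had 4455, 3011 and 3654 in WT and 2341, 2238 and 2350 in SCA1 KI libraries, which is an LFC of −0.66 ± 0.14 (standard error) with an adjusted p of 0.0125 by limma. No SCA1 KI library reached the lowest WT library in either region, and the call was lost only without SCA1 KI cerebellum library 3 (adjusted p = 0.0529 from limma) among the fits that left out 1 library. Il34, the ligand of Csf1r made mainly by neurons, had 347, 242 and 281 normalized counts in WT and 155, 179 and 153 in SCA1 KI cerebellum. In cerebellum the LFC was −0.82 ± 0.12 (standard error; adjusted p = 0.002 by limma) and in cortex it was −0.04 (adjusted p = 0.867), where its level was 2137 ± 203 in WT and 2076 ± 140 in SCA1 KI mice.

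Csf1, the other ligand of Csf1r, differed little in either region, with LFCs of −0.02 in cortex (95% interval −0.20 to 0.15) and −0.00056 in cerebellum (95% interval −0.18 to 0.18). Cd200, a neuronal membrane protein whose receptor restrains microglia, was higher in SCA1 KI cortex (6957 ± 601 against 4539 ± 157, LFC 0.61, adjusted p = 0.00202 from limma). Sirpa, the receptor through which CD47 restrains engulfment, was lower in SCA1 KI cortex (LFC −0.35, adjusted p = 0.00245 from limma). Of the 8 genes of this list, 1 was higher and 2 lower in cortex and 0 were higher and 2 lower in cerebellum.

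**Figure D5:**
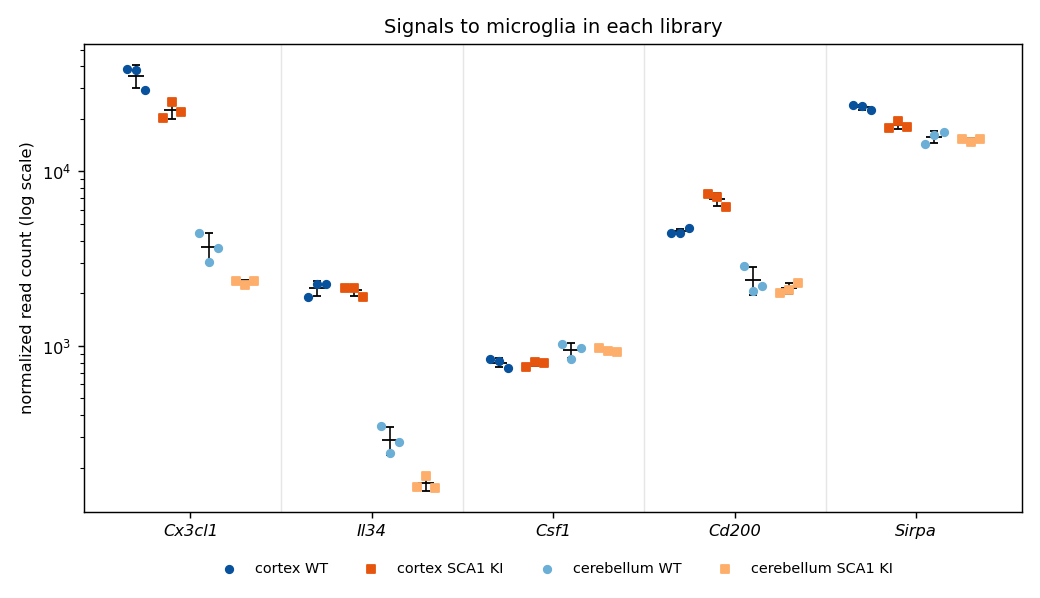
Normalized read counts (log axis) of 5 genes of signals to microglia in every library, drawn as in the plot of the 10 members. The SCA1 KI squares of Cx3cl1 lie below the WT circles in both regions, those of Il34 in the cerebellum, and those of Cd200 lie above the WT circles in the cortex.

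Of the 15 homeostatic microglial genes, 1 was a DEG in cortex and 0 in cerebellum. Mertk, a receptor for the uptake of dying cells that astrocytes also carry, was lower in SCA1 KI cortex at 1360, 1342 and 1186 normalized counts against 1906, 1803 and 2434 in WT, with an LFC of −0.65 (adjusted p = 0.00246 from limma). In the cerebellum 13 of the 15 had negative LFCs (median −0.27), against 51.3% of all tested genes. In the cortex 9 did (median −0.04), against 50.5%. The summed normalized count of the 15 was 9001, 7064 and 7347 in WT cerebellum libraries 2, 4 and 6. In the SCA1 KI cerebellum libraries it was 6687 to 6945. P2ry13, the close relative of P2ry12, was named after its values were seen and gave −0.32 in cerebellum (adjusted p = 0.114 from limma) and −0.04 in cortex.

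Of 19 tested genes that mark disease-associated microglia, Gpnmb was higher and Lpl and Axl were lower in SCA1 KI cortex, and Timp2 and Lpl were lower in cerebellum. Cst7, Itgax and Ch25h of the same list had no entry among the normalized counts. Lpl, which encodes lipoprotein lipase, had 998 ± 213 normalized counts in WT and 488 ± 61.4 in SCA1 KI cortex (LFC −1.02, adjusted p = 0.00436 from limma) and 126 ± 39.5 and 67.8 ± 4.84 in cerebellum (LFC −0.84, adjusted p = 0.0315). Gpnmb, a glycoprotein of phagocytes, rose with an LFC of 0.68 in cortex (adjusted p = 0.0264 from limma), a call lost when the cortex was fitted on its own (adjusted p = 0.0597) or without WT library B, WT library C or SCA1 KI library F (adjusted p from 0.0647 to 0.0969). Neurons also express Lpl and Timp2, and which cells these reads came from was not tested.

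Complement genes other than C1q changed in few cases. C1ra, which encodes C1r, the protease that C1q activates, was lower in SCA1 KI cortex, with 120, 143 and 96.8 normalized counts in WT against 50.3, 49.6 and 44.1 in SCA1 KI libraries (LFC −1.29, adjusted p = 0.00055 from limma), and was the 1 DEG among 11 tested genes of complement activation there. Its LFC in cerebellum was 0.27 (adjusted p = 0.527 from limma), at 17.5 to 25.3 normalized counts. C4b had LFCs of 0.10 in cortex and −0.38 in cerebellum and C3 of −0.37 and −0.77, none of which passed, and C3 was read at 6.9 to 19.9 normalized counts in cortex and 21.1 to 77.6 in cerebellum. Among 16 regulators, Csmd1 was lower in cortex (LFC −0.48, adjusted p = 0.0323 from limma) and Clu (−0.31, adjusted p = 0.0292) and Susd4 (−0.25, adjusted p = 0.0271) in cerebellum. Among 9 receptors, Lrp1 (−0.51, adjusted p = 0.0102) and C3ar1 (−0.42, adjusted p = 0.0496) were lower in cortex and none passed in cerebellum, where limma gave no lower or higher DEG and C3ar1 an LFC of −0.24. C3ar1 lost its call under most alternatives (adjusted p up to 0.132).

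Within the cells, 1 of 11 genes of Trem2 and Tyrobp signalling was a DEG, Inpp5d, a phosphatase that damps the pathway, which was lower in cortex (LFC −0.36, adjusted p = 0.0201 from limma). Of 10 transcription factors of microglia, Maf (LFC −0.66, adjusted p = 0.000355 from limma), Cebpa (−0.50, adjusted p = 0.00653) and Mef2c (−0.30, adjusted p = 0.031) were lower in SCA1 KI cortex and 0 were DEGs in cerebellum. Among all tested genes 10.8% were lower in SCA1 KI cortex. Maf, unlike the 10 members, was a DEG lower in cortex than in cerebellum in both genotypes. Spi1, the gene of PU.1, was named after its values were seen and gave LFCs of −0.03 in cortex and −0.18 in cerebellum that did not pass. Neurons also use Mef2c, at 46861 ± 821 normalized counts in WT cortex. Of 19 listed cytokines and inflammatory genes 10 were tested. Il1b, Tnf, Il6, Ccl2, Ccl3, Ccl4, Ccl5 and Ccl12 had no entry among the normalized counts, and Cxcl10 was under the minimum mean. The 1 DEG was Ptgs2, which cortical neurons express, with an LFC of −0.83 in cortex (adjusted p = 0.0323 from limma). Its call was lost without WT library C, SCA1 KI library E or SCA1 KI library F (adjusted p up to 0.136).

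With the LFC limit unchanged, the cortical calls of Mertk, Lpl, C1ra, Cx3cl1, Cd200, Sirpa, Cebpa and Maf held in every alternative with all libraries and in each of the 12 fits that left out 1 library, and so did the cerebellar call of Il34. The cerebellar calls of Lpl and Timp2 were lost when the cerebellum was fitted on its own (adjusted p = 0.0684 and 0.0731 from limma), and without SCA1 KI library 1 they stood at adjusted p of 0.126 and 0.0771. Without WT library 2 the LFC was −0.60 for Lpl (adjusted p = 0.109 from limma), −0.28 for Clu (adjusted p = 0.111) and −0.23 for Susd4 (adjusted p = 0.0985).

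Markers of other cells were counted beside these results. In cortex 6 of 9 astrocyte markers (for example Aldh1l1, LFC −0.57) and 4 of 6 neuron markers were lower in SCA1 KI mice, against 10.8% of all tested genes. Summed normalized counts of the astrocyte list were 154349 to 217618 in SCA1 KI against 300224 to 302526 in WT cortex. For the neuron list they were 230187 to 248674 against 318894 to 340557. The 14 lower companion genes in cortex include several that astrocytes or neurons express, and the part of these cells in the result was not tested. In cerebellum 2 of 9 astrocyte markers (Aldoc and Aldh1l1) and 0 of 6 neuron markers were lower, against 4.44% of all tested genes. All 9 astrocyte markers had negative LFCs there, against 51.3% of all tested genes (median −0.29, beside −0.19 for the members). Their sums of 192916 to 196851 in SCA1 KI libraries lay below those of 230961 to 246935 in WT libraries. Markers of border macrophages, the other resident macrophages of the brain, gave 0 DEGs of 8 in either region, with sums of 1149 to 1316 in WT and 899 to 1170 in SCA1 KI cortex and of 782 to 1060 and 741 to 891 in cerebellum, where WT library 2 was again the highest. Of 13 blood leukocyte markers 6 were tested with 0 DEGs in either region, and sums in cortex ranged from 142 to 984. All 6 had negative LFCs in cortex (median −0.88) and 0 had them in cerebellum, against 50.5% and 51.3% of all tested genes. The 1 tested erythroid marker, Alas2, was a DEG in cortex, with 121 to 193 normalized counts in SCA1 KI and 238 to 298 in WT. Its LFC was −0.76 there and −0.54 in cerebellum, where it did not pass. Endothelial markers gave 0 DEGs of 6, and choroid plexus markers 0 of 5, with sums that ranged from 821 to 75165 between cerebellar libraries.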

How the data were processed

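RNA of 12 libraries, 3 in each of 4 groups, had been aligned, counted per gene and normalized by the authors (STAR, featureCounts and DESeq2 with mm10, per the submitters' processing notes). The deposited values are a signal of read counts divided by size factors, and all came back to whole reads within 0.01 reads. Columns carry their own letters or numbers, not the replicate numbers of the labels. Of 15759 entries, 390 with a mean under 10 were left out.

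The main test was limma 3.58.1 (R 4.3.3) on log2(normalized count + 1) with 1 mean for each group and Benjamini-Hochberg adjustment over 15369 genes, and this scale understates the change of low genes. It was used because the values are normalized counts, with edgeR 4.0.16 and DESeq2 1.42.0 on the recovered reads as alternatives. The other alternatives were pseudocounts of 0.5 and 5, no minimum, a minimum mean of 100, each region alone, centring on the region's median, no LFC limit or one of 1, removal of the dependence on GC content and transcript length, and leaving out each library in turn. Libraries of a group differed beyond counting noise (chi-square per gene 7.43 to 36.3 over 12 pairs). The fits were tested on simulated data.

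Members and lists were chosen with earlier results of these data known. The text names all members, the genes of smallest p among the DEGs of each list (up to 3 a direction), C3, C4b, Csf1, Il34 and Cx3cl1, and the 10 genes most like the members. Gene positions are from GENCODE vM21 and promoters from RefSeq.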

Additional observations from a re-analysis of the deposited data

Results flagged for a closer look

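By the test of the difference itself, the LFC of SCA1 KI against WT differed between the regions for 8 of 108 tested companion genes. It did so for 0 of the 10 members and for 8.15% of all tested genes. The cortical LFC minus the cerebellar LFC was 0.78 for Il34 (adjusted p = 0.0163 from limma), 0.76 for Cd200 (0.0092) and 1.27 for Timp2 (0.0102). It was −1.56 for C1ra (0.0037), −0.71 for Mertk (0.0205), −0.60 for Cebpa (0.0311), −0.76 for Csmd1 (0.0341) and −0.50 for Maf (0.0333). Over the 12 fits that left out 1 library each, the difference passed in 12 for Il34, Cd200, Timp2 and C1ra, in 10 for Mertk, in 5 for Cebpa, in 4 for Csmd1 and in 3 for Maf.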

How the results depend on the processing

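The count of members called in cerebellum was 1, and it was 0 with the region fitted on its own or an LFC limit of 1 and 2 with edgeR or DESeq2. Leaving out 1 library gave 0 to 2, with 0 without SCA1 KI library 1, 3 or 5 or WT library 2 and 2 without WT library 4. For the regional difference DESeq2 called 1 member. Companion genes higher in cortex numbered 4 with the dependence on GC content and length removed, 0 with the limit of 1 and 1 to 4 without 1 library, and those lower numbered 2 with the limit of 1. In cerebellum 3 were higher with the dependence removed (0 to 1 without 1 library) and 0 were lower with the limit of 1 (1 to 8 without 1 library). Over all genes, the limit of 1 left 323 of 2402 DEGs in cortex, 312 of 824 in cerebellum, 3620 between regions in WT and 3622 in SCA1 KI mice. Without cerebellar SCA1 KI libraries 1, 3 and 5 the cerebellar count was 399, 454 and 512, and the regional difference of 1253 genes was 783 and 833 without libraries 1 and 3.

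Signs turned for values near 0. P2ry12 in cortex was 0.0015 with centring and 0.012 with edgeR. Removing the dependence gave regional differences of −0.012 for Tyrobp, −0.024 for C1qa and −0.0099 for C1qb, and LFCs of 0.077 (cortex) and 0.10 (cerebellum) for Csf1 and 0.0061 for Il34 in cortex. Csf1 in cerebellum was 0.024 with centring. Without 1 library, cerebellar LFCs ran from −0.35 to 0.092 for Aif1, −0.26 to 0.022 for C1qb, −0.27 to 0.043 for Tyrobp, −0.24 to 0.00052 for Cd200, −0.084 to 0.058 for Csf1 and −0.0028 to 0.16 for Mertk. Cortical LFCs ran from −0.17 to 0.028 for C1qb, −0.13 to 0.060 for C1qc, −0.081 to 0.33 for C4b, −0.073 to 0.013 for Csf1, −0.13 to 0.0084 for Cx3cr1, −0.12 to 0.018 for Il34, −0.042 to 0.075 for P2ry12 and −0.20 to 0.11 for Tyrobp. Regional differences ran from −0.10 to 0.15 for C1qa, −0.11 to 0.18 for C1qb, −0.011 to 0.25 for C1qc, −0.041 to 0.16 for Csf1r and −0.095 to 0.23 for Tyrobp. The cause of these turns was not tested. No paired analysis was possible because the columns carry letters and numbers of their own and not the replicate numbers of the labels.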
